A study of Homo sapiens with 6 samples.

Results

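The set described here is a stretch of 2.2 Mb on human chromosome 19, with B9D2 as its first gene (start 41354421 on GRCh38) and XRCC1 as its last (start 43543040). Its members are the protein-coding genes of GENCODE 29 that start there, leaving out ribosomal protein genes, ZNF genes, B3GNT8 and CEACAM5. They are 51 of the 59565 loci in the count table, and 24 of them had enough counts to be tested. The stretch was chosen by the fold changes of Enz-R over parental cells themselves, because neighbouring genes in it were higher in Enz-R, so that contrast is given below as a description of the members and not as a test. The study sequenced RNA from an enzalutamide-resistant line of C4-2 prostate cancer cells, labelled Enz-R, and from parental C4-2 cells, with 3 libraries each. C4-2 is an established human line derived from LNCaP that grows with little androgen, and enzalutamide is an antagonist of the androgen receptor. Whether the Enz-R line is a clone, and whether it was in enzalutamide when collected, is not in the labels. They also name no separate cultures, so the spread between libraries may be technical.

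Chromosome 19 is gene-dense and rich in GC. This stretch alternates between broadly used genes and arrays of tissue-restricted genes. The CEACAM genes encode immunoglobulin-like adhesion proteins of epithelia and granulocytes, and the PSG genes encode the pregnancy-specific glycoproteins of the placenta. Between the arrays lie genes for a guanine nucleotide exchange factor (ARHGEF1), a kinase of glycogen synthase (GSK3A), a pair of transcriptional repressors that act downstream of ERK signalling (ERF and CIC), the hormone-sensitive lipase (LIPE) and a DNA repair scaffold (XRCC1).

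Library totals ran from 15673404 to 23351394 counts in Enz-R and from 19400321 to 28247038 in parental cells. Log2 CPM (counts scaled to library size) correlated at 0.990 to 0.993 within groups and at 0.926 to 0.936 between them. All 8 fixed markers of luminal prostate epithelium passed the count filter, with a summed level of 5260 to 5440 CPM in Enz-R and 8690 to 9330 CPM in parental libraries. Of the leukocyte markers, PTPRC had 6 counts over the Enz-R group and 2 over the parental group. LCP1, which prostate cancer cells can also express, made up nearly all of the 174 to 221 CPM in Enz-R and the 59.1 to 67.4 CPM in parental libraries of that list. B cell markers summed to 3.70 to 4.83 CPM in Enz-R and 6.00 to 6.92 CPM in parental libraries. Neutrophil markers summed to 2.70 to 3.36 CPM in Enz-R and 2.36 to 3.90 CPM in parental libraries, with S100A12 and FCGR3B at 0. Trophoblast markers summed to 0.182 to 0.528 CPM in Enz-R and 0.486 to 0.682 CPM in parental libraries, with CSH1 at 0. Colon epithelium markers summed to 6.81 to 9.62 CPM in Enz-R and 3.50 to 3.80 CPM in parental libraries, with CDH17 at 0. CDX2 had 134 counts over Enz-R and 4 over parental libraries. LGALS4 averaged 4.54 CPM in Enz-R and 2.54 CPM in parental cells, and GPA33 averaged 1.03 CPM in Enz-R and 1.02 CPM in parental cells. The part of these marker differences in the members' values was not tested.

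The tested members were higher in Enz-R almost throughout. Of the 24, 20 were called higher and none lower at adjusted p under 0.05, where 64.8% of all tested genes were called in either direction, 32.4% higher and 32.3% lower. All 24 fitted changes were above 0, and 8 were at least 1 on the log2 scale. Their median log2 fold change of Enz-R over parental was 0.77, against 0.01 over all 19029 tested genes. The Enz-R libraries all lay above the parental libraries for 19 members and all below them for none, against 34.2% and 34.7% of all tested genes. The contrast chose the members, so nothing is read from these shares. The groups overlapped for 5 members, among them B9D2, CD79A, GSK3A and CEACAM1. Of the 24, 22 are described one by one below and in the plots.

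Both flanks had smaller medians than the interval. In the 2 Mb below the interval, 29 of 41 tested genes were called higher and 4 lower, with a median of 0.46. In the 2 Mb above it, 16 of 34 were called higher and 6 lower, with a median of 0.20. Ribosomal protein and ZNF genes were left out of both flanks. Over the rest of chromosome 19, where they were kept, 459 of 922 tested protein-coding genes were called higher and 225 lower, with a median of 0.25. Over all 13580 tested protein-coding genes, also with ribosomal protein and ZNF genes kept, the median was -0.05. The interval thus had a higher median than its flanks. Both flanks and the rest of the chromosome in turn had higher medians than all tested protein-coding genes. These differences were not tested, because the interval's ends were drawn from the same contrast.

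**Figure D1:**
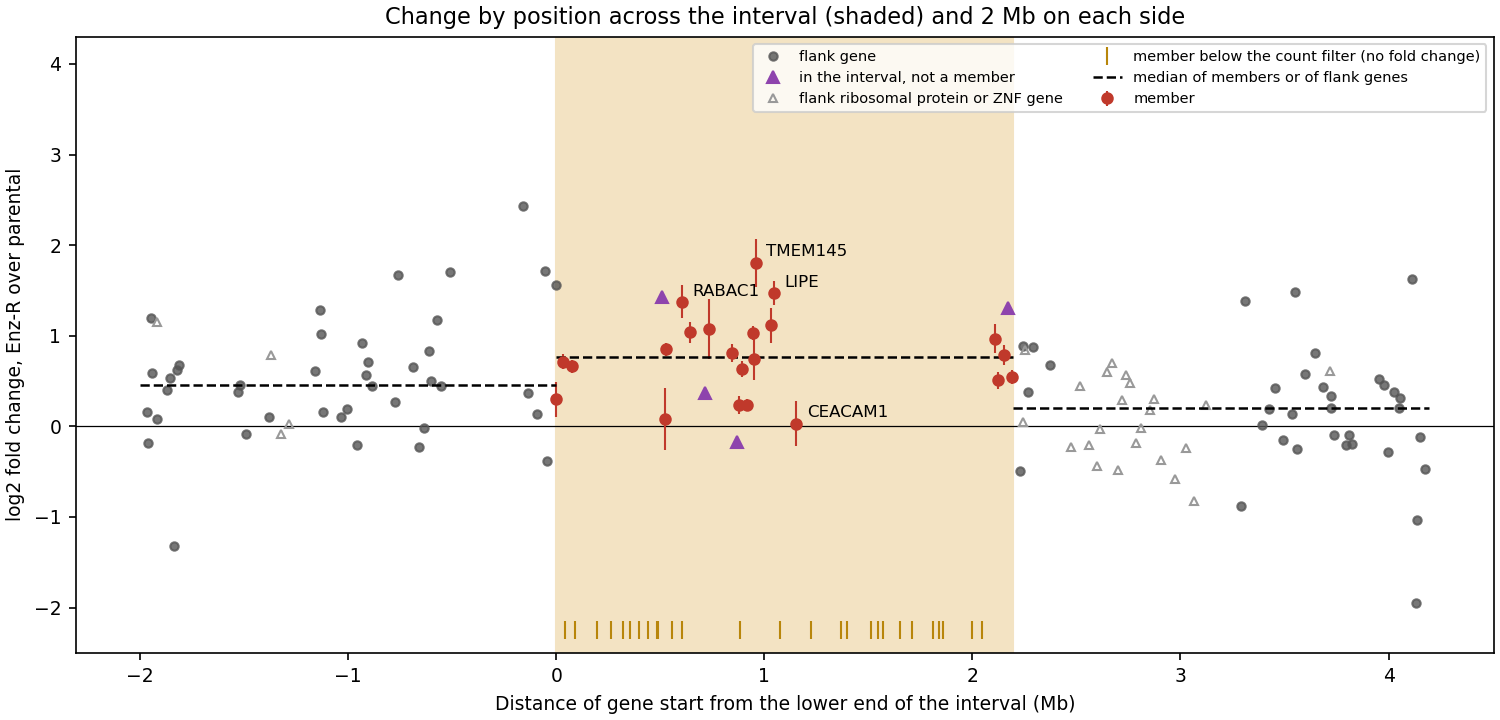
Log2 fold change of Enz-R over parental (y axis) against the distance of each gene's start from the lower end of the interval in Mb (x axis). Red points are members with the SE of the fit, grey points are flank genes, triangles are genes the selection leaves out, ticks mark members without enough counts, and dashed lines are medians. The 22 members plotted lie between 0.03 and 1.81, and the medians are 0.46 below the interval, 0.77 in it and 0.20 above it.

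The raised genes came in groups separated by nearly silent arrays. From the lower end to DMAC2, 3 of 5 members were tested, with a median of 0.66. None of the 8 members from CEACAM21 to DMRTC2 was tested. From CD79A to LIPE, 16 of 19 were tested and 14 called higher, with a median of 0.94, and all 8 members with a change of at least 1 lie here. From CXCL17 to TEX101 only CEACAM1 of 15 members was tested. All 4 members from LYPD3 to XRCC1 were tested and called higher, with a median of 0.67. These groups were drawn after the values were seen.

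The ends of the interval were not sharp. Genes are placed here by their lowest coordinate, whichever their strand. Just inside the lower end, B9D2, a component of the ciliary transition zone, had 3.46, 2.82 and 2.39 CPM in the Enz-R libraries, against 2.43, 2.30 and 2.39 CPM in the parental libraries. The groups overlapped, and its log2 fold change was 0.30 ± 0.19 (SE). TMEM91, a transmembrane protein gene, starts just outside at 41350911 but runs to 41384083, so most of it lies inside. It had 15.8, 16.97 and 18.99 CPM in Enz-R, against 5.98, 6.10 and 5.36 CPM in parental libraries (1.56 ± 0.12). All 3 Enz-R libraries were well above the parental ones. The next tested gene outward, CCDC97, went the other way, with 33.2, 29.3 and 26.0 CPM in Enz-R, against 38.1, 40.3 and 37.4 CPM in parental libraries (-0.38 ± 0.08). Of the tested genes beyond it, in order outward by lowest coordinate, TGFB1 was at 1.72 ± 0.32 and HNRNPUL1 at 0.13 ± 0.06. AXL was at 0.36 ± 0.21 and CYP2S1 at 2.43 ± 0.20, and HNRNPUL1 and AXL were not called. TGFB1, on the minus strand, runs to 41353911, at the edge of the interval.

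At the upper end, XRCC1 and ETHE1 are the last tested members. XRCC1, the scaffold of single-strand break repair, had 28.4, 29.1 and 28.9 CPM in Enz-R, against 21.6, 18.4 and 18.9 CPM in parental libraries (0.55 ± 0.08). ETHE1, the mitochondrial persulfide dioxygenase of sulfide oxidation, had 17.9, 20.2 and 16.5 CPM in Enz-R, against 11.3, 9.20 and 11.1 CPM in parental libraries (0.78 ± 0.11). For both genes the Enz-R libraries stood apart above the parental ones. Just outside, IRGQ was lower, with 32.4, 35.0 and 29 CPM in Enz-R, against 42.1, 45.7 and 48.4 CPM in parental libraries (-0.49 ± 0.08). SRRM5 was higher again, with 2.78, 1.76 and 2.58 CPM in Enz-R, against 1.49, 1.30 and 1.02 CPM in parental libraries (0.89 ± 0.24). Within 1 Mb of the interval, 15 of 21 tested genes below it and 4 of 5 above it were called higher, with medians of 0.57 and 0.68, and 2 and 1 were called lower. Between 3.0 and 4.5 Mb from the lower end, the median in bins of 0.5 Mb was 0.11 over 6 genes, 0.20 over 15 genes and 0.04 over 8 genes.

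The libraries of a group behaved alike over the members. The tested members summed to 632, 591 and 590.3 CPM in Enz-R replicates 1 to 3, against 394, 382 and 395 CPM in parental replicates 1 to 3. The median deviation from the parental mean, on a log2(CPM + 0.5) scale, was 0.75, 0.67 and 0.63 in the Enz-R libraries and 0.02, -0.01 and -0.03 in the parental libraries. In the Enz-R libraries 22, 22 and 23 of the 24 members lay above their parental mean. No Enz-R library came near the parental ones on this summary.

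**Figure D2:**
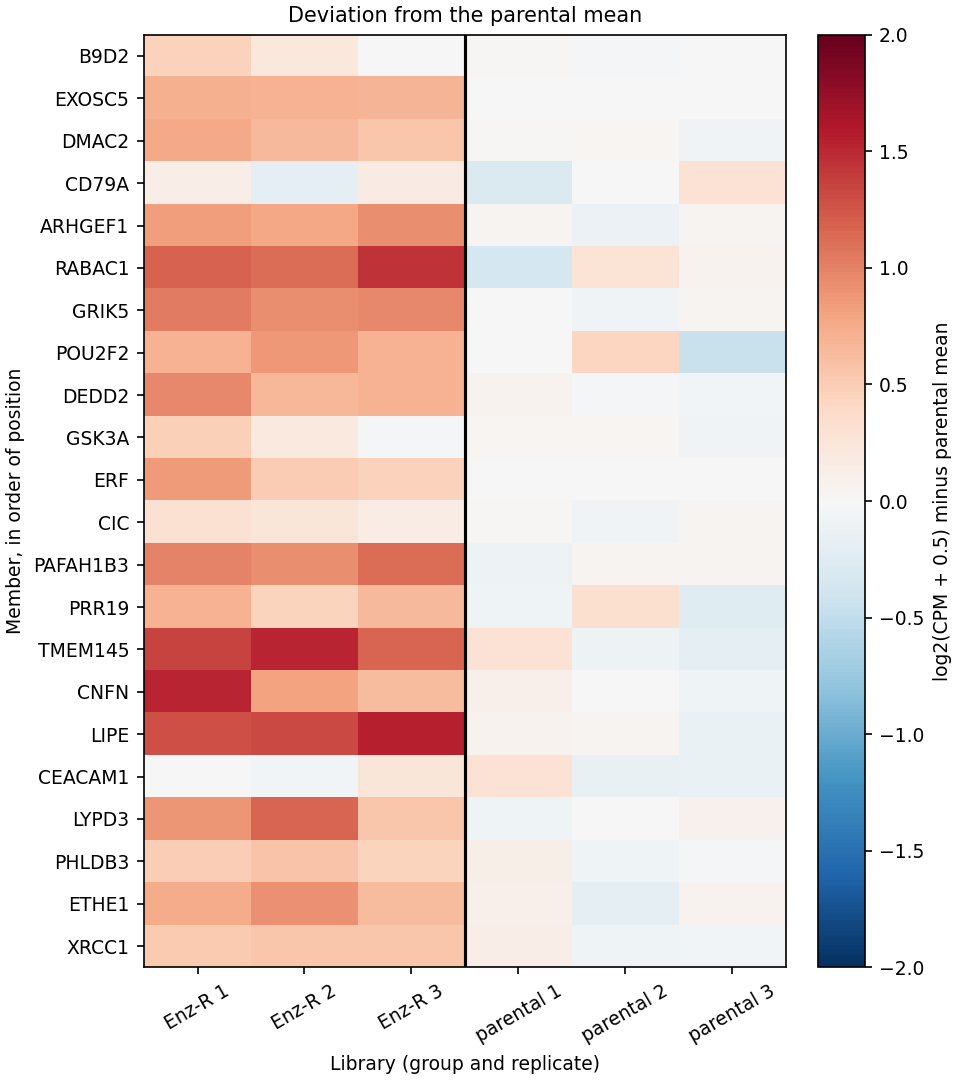
Log2(CPM + 0.5) of each tested member minus its parental mean (colour) for the 6 libraries (columns, Enz-R left of parental) with members in order of position (rows). Medians are 0.75, 0.67 and 0.63 in the Enz-R columns and between -0.03 and 0.02 in the parental columns, taken over all 24 tested members, and the palest of the 22 rows shown include CD79A and CEACAM1.

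Among the signalling genes, ARHGEF1 (ENSG00000076928, chromosome 19, 41883161 to 41930150, plus strand) carried the most counts. It encodes an exchange factor that acts downstream of G protein-coupled receptors. It had 117, 112 and 126 CPM in Enz-R, against 68.0, 60.3 and 68.1 CPM in parental libraries, a log2 fold change of 0.85 ± 0.07. The lowest Enz-R library was far above the highest parental one. GSK3A (42230186 to 42242625, minus strand), whose kinase phosphorylates glycogen synthase, had 45.3, 37.4 and 32.2 CPM in Enz-R, against 33.3, 33.6 and 30.9 CPM in parental libraries (0.24 ± 0.10). Its groups overlapped, and its call was lost in 8 of the other fits and runs with 1 library left out. The change was 0.10 without Enz-R replicate 1 and 0.10 to 0.35 over the alternatives.

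Both ERK-responsive repressors were higher, by unequal amounts. ERF (ENSG00000105722, 42247572 to 42255157, minus strand), an ETS-domain repressor that ERK expels from the nucleus, had 74.5, 58.9 and 57.1 CPM in Enz-R, against 41.2, 41.6 and 40.8 CPM in parental libraries (0.63 ± 0.09). All Enz-R libraries were above the parental ones, and replicate 1 was the highest. CIC (ENSG00000079432, 42268537 to 42295797, plus strand), an HMG-box repressor, had 64.1, 61.3 and 57.5 CPM in Enz-R, against 52.8, 49.1 and 53.6 CPM in parental libraries (0.23 ± 0.07). Its groups did not overlap, but the gap was small, and with total count scaling the change was 0.14 and the call was lost. The octamer-binding factor gene POU2F2, best known from B cells, averaged 1.44 ± 0.129 CPM in Enz-R and 0.684 ± 0.355 CPM in parental cells (SD, n = 3 each), a change of 1.07 ± 0.33. Leaving out parental replicate 3 gave 0.77 and ended the call. DEDD2, which encodes a nuclear death-effector-domain protein, had 25.03, 20.2 and 20.8 CPM in Enz-R, against 13.3, 12.4 and 12.1 CPM in parental libraries (0.81 ± 0.10). The separation was clear for DEDD2 in every library.

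LIPE (ENSG00000079435, 42401507 to 42427426, minus strand) encodes hormone-sensitive lipase, which splits stored diacylglycerol and cholesteryl esters. It had 11.9, 12.2 and 14.5 CPM in Enz-R, against 4.87, 4.798 and 4.14 CPM in parental libraries, which is 2.77-fold higher (1.47 ± 0.13). PAFAH1B3 (ENSG00000079462, 42297033 to 42303546, minus strand), a catalytic subunit of platelet-activating factor acetylhydrolase 1B, had 58.4, 55.5 and 63.7 CPM in Enz-R, against 26.9, 30.1 and 29.96 CPM in parental libraries, 2.04-fold higher (1.03 ± 0.07). DMAC2, an assembly factor of mitochondrial complex I, had 46.2, 42.9 and 40.3 CPM in Enz-R, against 27.6, 28.1 and 26.0 CPM in parental libraries (0.66 ± 0.07). In these 3 genes no Enz-R library came down to the parental range. BCKDHA, a subunit of the branched-chain ketoacid dehydrogenase, had only 28 counts over the Enz-R group and 21 over the parental group and was not tested.

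EXOSC5, a core subunit of the RNA exosome, had 23.4, 22.9 and 22.7 CPM in Enz-R, against 14.0, 14.0 and 14.0 CPM in parental libraries (0.71 ± 0.08). PHLDB3, a gene with a pleckstrin homology domain, had 19.3, 20.4 and 18.7 CPM in Enz-R, against 14.8, 12.8 and 13.2 CPM in parental libraries (0.51 ± 0.09). Both sets of Enz-R libraries lay above the parental ones. PRR19, whose product acts in meiotic crossing-over in mice, averaged 2.48 ± 0.274 CPM in Enz-R and 1.49 ± 0.407 CPM in parental cells (0.75 ± 0.23), and CNFN, a protein of the cornified envelope, 13.5 ± 4.85 CPM in Enz-R and 6.29 ± 0.426 CPM in parental cells (1.11 ± 0.19; SD, n = 3 each). The call of PRR19 was lost without parental replicate 3, at 0.61.

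The membrane genes held both large changes and changes near 0. TMEM145, a predicted receptor-like membrane protein gene, had 2.51, 2.88 and 2.13 CPM in Enz-R, against 0.938, 0.600 and 0.536 CPM in parental libraries (1.81 ± 0.27). RABAC1, which binds prenylated Rab GTPases at the Golgi, had 7.57, 7.16 and 9.11 CPM in Enz-R, against 2.29, 3.80 and 3.21 CPM in parental libraries (1.37 ± 0.18). Low as they are, the groups of these genes did not overlap. The kainate receptor subunit gene GRIK5 averaged 12.2 ± 0.474 CPM in Enz-R and 5.96 ± 0.296 CPM in parental cells (1.04 ± 0.11), and LYPD3, a GPI-anchored protein of the Ly6 family, 8.56 ± 1.87 CPM in Enz-R and 4.40 ± 0.299 CPM in parental cells (0.97 ± 0.16; SD, n = 3 each).

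CEACAM1 and CD79A had overlapping groups and were not called. CEACAM1, an epithelial adhesion and signalling receptor, had 1.55, 1.47 and 1.94 CPM in Enz-R, against 2.02, 1.35 and 1.36 CPM in parental libraries (0.03 ± 0.25). CD79A, a chain of the B cell receptor complex, had 0.866, 0.587 and 0.904 CPM in Enz-R, against 0.521, 0.750 and 1.02 CPM in parental libraries (0.08 ± 0.34). Both genes have few counts, and their SE is above 0.2.

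**Figure D3:**
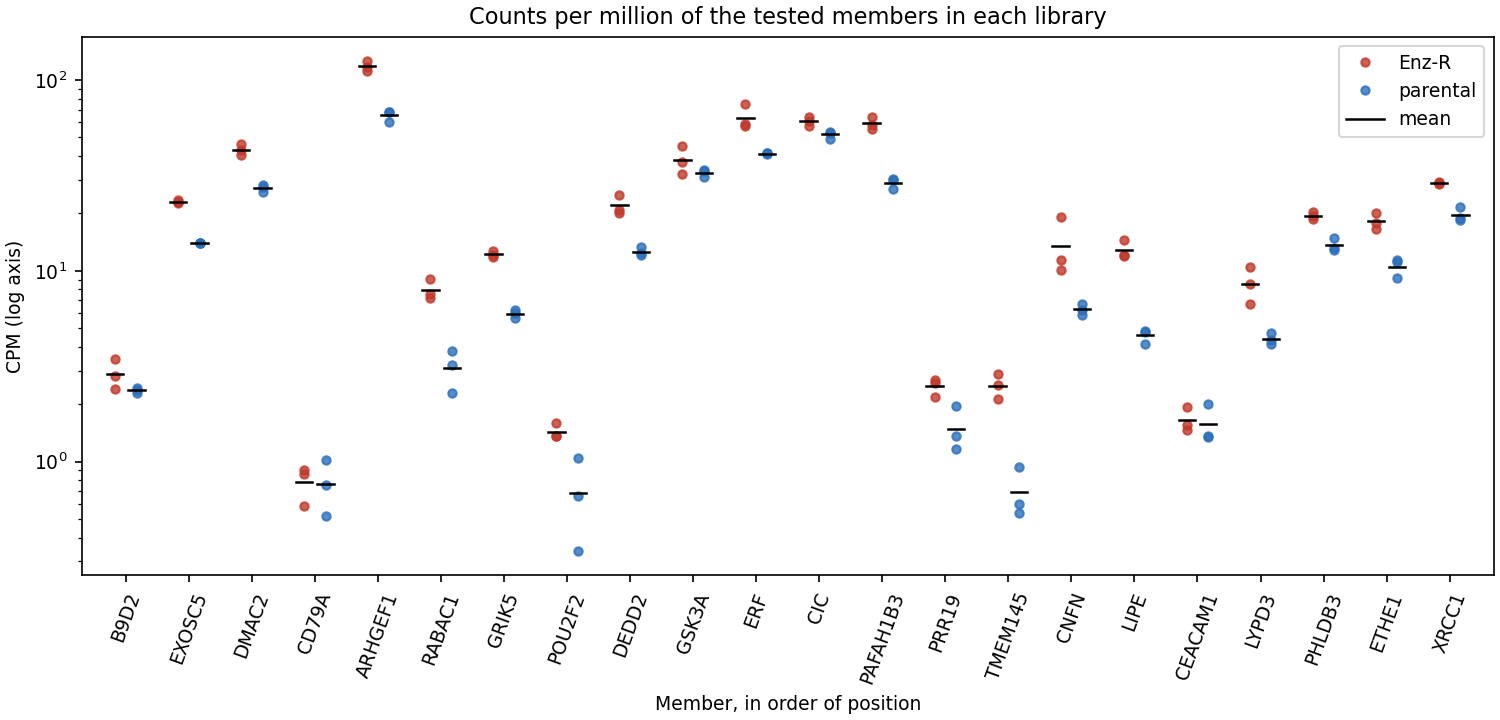
CPM on a log axis (y axis) of 22 tested members in order of position (x axis) for each library, Enz-R in red left of parental in blue, with black bars at the group means. The groups separate for 18 of them and overlap for B9D2, CD79A, GSK3A and CEACAM1.

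Per kilobase of the longest annotated transcript, PAFAH1B3 had the highest level of the tested members in both groups, at 53.9 CPM per kb in Enz-R and 26.4 in parental cells. ARHGEF1 followed at 34.3 CPM per kb in Enz-R and 19 in parental cells. POU2F2 had the lowest level in Enz-R, at 0.208 CPM per kb, with 0.0991 in parental cells.

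The remaining 27 members were below the count filter and had 104 counts over the Enz-R libraries and 71 over the parental libraries in all. Of these, 9 had no count in any library, which allows up to 3 counts, or 0.128 to 0.191 CPM in an Enz-R library and 0.106 to 0.155 CPM in a parental one. The 10 PSG genes had 1 count over the Enz-R group and 13 over the parental group, a ratio of 0.0916 (95% counting interval 0.00215 to 0.610), so the placental array was near 0 in both lines. The CEACAM genes other than CEACAM1 and CEACAM5 had 16 counts over the Enz-R group and 5 over the parental group, across 6 genes. Most of these fell on CEACAM8, a granulocyte antigen gene, with 3, 10 and 0 counts in the Enz-R libraries, against 2, 0 and 1 counts in the parental libraries. Enz-R replicate 2 alone thus held 10 of its 13 counts in Enz-R, and the groups overlapped. PSG and CEACAM genes are close copies of each other, so counts of single genes are uncertain. The intervals are exact and cover counting error only.

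Several members share exons with other annotated genes, and nothing states that the libraries kept strand. BCKDHA shares 63.8% of its exonic length, on its own strand, with a read-through gene that also spans TMEM91 and that was listed at 0 in all libraries. GSK3A and ERF share 11.6% and 4.70% of theirs with another such gene (ENSG00000268643), also listed at 0. How reads in shared exons were counted is not given in the sources used here. On opposite strands, PAFAH1B3 and PRR19 overlap over 19.2% and 10.6% of their exonic length, XRCC1 overlaps other genes over 17.5%, ETHE1 overlaps ZNF575 over 14.8%, and LIPE overlaps LIPE-AS1 over 9.60%. Unless strand was kept, reads of such a pair cannot be told apart there.

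The tested members were GC-rich. Their transcripts had a median GC content of 61.6%, against 58.3% in the lower flank, 59.3% in the upper flank and 48.8% over all tested genes. After each library was corrected for GC content and transcript length, 20 of the 24 were still called higher by edgeR's quasi-likelihood test, but the median was 0.56 in place of 0.77. EXOSC5 then stood at 0.35, ETHE1 at 0.39, PHLDB3 at 0.26, DEDD2 at 0.52, ERF at 0.42, PAFAH1B3 at 0.65, CNFN at 0.69 and RABAC1 at 0.94, while LIPE and DMAC2 stood at 1.40 and 0.62. B9D2 and CD79A turned to -0.07 and -0.25.

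**Figure D4:**
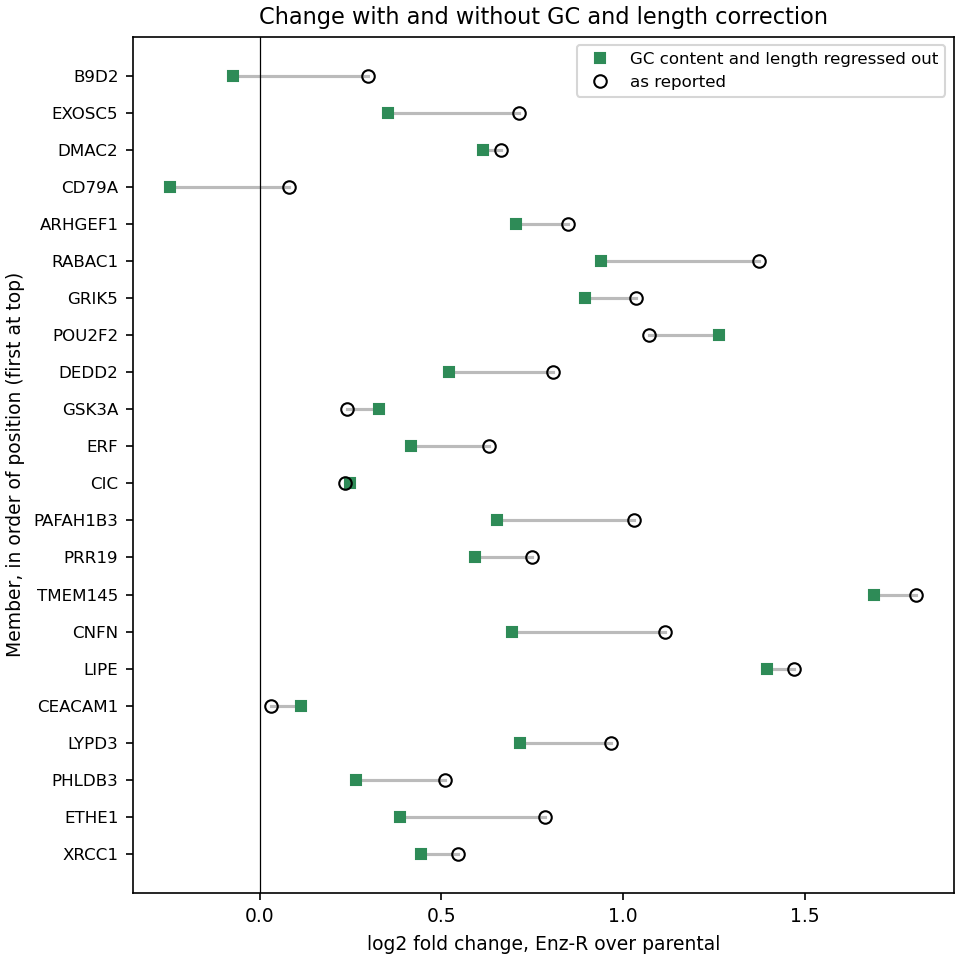
Log2 fold change of Enz-R over parental (x axis) for 22 tested members (rows, in order of position) as reported (open circles) and after correction of each library for GC content and length (green squares). The median over all 24 tested members is 0.77 as reported and 0.56 with the correction, and B9D2 and CD79A lie below 0 with it.

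Promoters of the tested members were mostly of the CG-rich kind. RefSeq promoters of GRCh38.p14 run here from 250 bases before to 50 after a gene's start. They were found for 21 of the 24 tested and 16 of the 27 untested members, taking the start nearest the GENCODE 5′ end. Among tested members other than POU2F2 and CEACAM1, given below, it lay 4946 bases away for XRCC1 and 1180 for DMAC2. It lay 746 away for PAFAH1B3, 708 for GRIK5 and at most 189 for the others. In untested members it lay up to 18706 bases away, for CEACAM7. The median number of CG dinucleotides was 19 in tested and 4 in untested members, against 14 over 35116 promoters. Those 35116 were not filtered here by expression, gene type or chromosome 19, so they are not matched to the tested members. Whether any difference from them is particular to this stretch was not tested. The GC box GGGCGG, on either strand, was in 17 of 21 tested members (81.0%), in 8 of 16 untested members (50%) and in 45.0% of all promoters. The letters TATAAA were in none of the 21, against 11.5% of all promoters. The androgen response half-site AGAACA was in 1 of the 21, that of ETHE1 (4.76%, against 14.8%). The ETS sequence CCGGAAGT was in 2 of the 21, those of PHLDB3 and POU2F2 (9.52%, against 4.14%), the POU2F2 start used lying 64139 bases from the GENCODE one, and the CIC octamer TGAATGAA in none of them (against 1.65%). All motifs were searched on both strands, and a match or its absence describes these windows only.

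The 250 bases upstream of 3 members are shown for the range of CG content among tested members. The CEACAM1 start used lies 32753 bases from the GENCODE one. ARHGEF1 (chr19:41882934-41883183, plus strand) has 37 CG dinucleotides and a change of 0.85, LIPE (chr19:42427389-42427638, minus strand) has 3 and a change of 1.47, and CEACAM1 (chr19:42528482-42528731, minus strand) has 1 and a change of 0.03. Sequences run 5′ to 3′ on the gene's strand, and capitals mark CG dinucleotides.
ARHGEF1: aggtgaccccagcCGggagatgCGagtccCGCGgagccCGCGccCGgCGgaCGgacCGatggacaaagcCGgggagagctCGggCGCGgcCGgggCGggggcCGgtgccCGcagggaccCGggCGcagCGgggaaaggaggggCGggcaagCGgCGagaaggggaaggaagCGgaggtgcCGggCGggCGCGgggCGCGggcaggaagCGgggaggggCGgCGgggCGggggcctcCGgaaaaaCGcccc
LIPE: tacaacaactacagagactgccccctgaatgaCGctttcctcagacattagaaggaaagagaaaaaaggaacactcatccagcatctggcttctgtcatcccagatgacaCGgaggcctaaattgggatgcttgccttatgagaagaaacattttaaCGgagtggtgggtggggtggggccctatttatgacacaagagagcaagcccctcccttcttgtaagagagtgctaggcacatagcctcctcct
CEACAM1: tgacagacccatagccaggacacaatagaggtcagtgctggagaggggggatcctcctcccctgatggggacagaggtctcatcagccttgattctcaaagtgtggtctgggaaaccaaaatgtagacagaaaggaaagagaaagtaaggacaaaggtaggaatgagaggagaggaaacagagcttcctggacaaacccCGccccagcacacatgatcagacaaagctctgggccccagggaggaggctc

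Genes that work with the members but lie outside the stretch were called in both directions. Of 68 such genes in 10 lists, 62 were tested, and 20 were called higher and 26 lower by edgeR (quasi-likelihood, Benjamini-Hochberg over all genes). Over all tested genes 32.4% were called higher and 32.3% lower, which is the background for the counts of each list below too. The median log2 fold change of the 62 partner genes was -0.14. The other subunits of platelet-activating factor acetylhydrolase 1B both fell, PAFAH1B2 to 78.8 ± 7.53 CPM in Enz-R, against 132 ± 5.09 CPM in parental cells (-0.74 ± 0.07, adjusted p = 2.91e-07), and PAFAH1B1 by 0.34 ± 0.07 on the log2 scale (adjusted p = 0.000309), while PAFAH1B3 was higher. GSK3B, the close relative of GSK3A, fell by 0.62 ± 0.07 (adjusted p = 1.46e-06), and glycogen synthase GYS1 by 0.31 ± 0.06 (adjusted p = 0.000389). AXIN1, the scaffold of the beta-catenin destruction complex, was not called (0.11, adjusted p = 0.122).

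The repair partners of XRCC1 were lower or mixed. Of 9 tested genes 5 fell and 1 rose. PARP1, which senses DNA breaks, fell to 177 ± 7.18 CPM in Enz-R, against 386 ± 22.9 CPM in parental cells (-1.12 ± 0.07, adjusted p = 1.40e-09 by edgeR). The uracil glycosylase UNG (-0.76 ± 0.07), the ligase LIG3 (-0.55 ± 0.06) and the adenine glycosylase MUTYH (-0.40 ± 0.07) fell, and APTX, which removes AMP from failed ligations, rose (0.18 ± 0.06). Of the 10 other exosome genes, EXOSC7 (0.56 ± 0.08), EXOSC4 (0.35 ± 0.10) and EXOSC1 (0.28 ± 0.07) were among 5 that rose, and the catalytic subunits EXOSC10 (-0.57 ± 0.06) and DIS3 (-0.26 ± 0.10) and the cap subunit EXOSC2 (-0.30 ± 0.06) fell. EXOSC5 was at 0.71, and its difference from these genes was not tested.

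Branched-chain amino acid breakdown, the pathway of BCKDHA, was lower in 10 of 13 genes and higher in 2. DBT, the core of the ketoacid dehydrogenase, fell to 50.2 ± 3.91 CPM in Enz-R, against 115 ± 4.70 CPM in parental cells (-1.19 ± 0.07), DLD fell by 0.88 ± 0.06, the phosphatase PPM1K by 0.71 ± 0.06, MCCC1 by 0.69 ± 0.07, the transaminase BCAT1 by 0.67 ± 0.14 and ACADSB by 0.49 ± 0.07 on the log2 scale. The 2 genes that rose, named after their values were seen, were the transaminase BCAT2 (0.33 ± 0.06) and HIBCH (0.32 ± 0.08). Of the sulfide oxidation partners of ETHE1, SQOR rose (0.56 ± 0.10) and SUOX and TST were not called.

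The lipolysis partners of LIPE were higher in 3 of 5 tested genes and lower in 1. The monoglyceride lipase MGLL (1.23 ± 0.15), the triglyceride lipase PNPLA2 (0.35 ± 0.07) and its activator ABHD5 (0.23 ± 0.08) rose, and the lipid droplet protein PLIN1 fell (-0.81 ± 0.25).

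Among genes linked to CIC, targets that it represses changed in both directions, with only SPRED2 called lower. SPRY2 (1.64 ± 0.17), DUSP4 (1.203 ± 0.122), SPRED1 (1.16 ± 0.15) and DUSP6 (1.04 ± 0.31), which all restrain ERK signalling, rose. DUSP6 averaged only 1.65 CPM in Enz-R and 0.786 CPM in parental cells. SPRED2 fell (-0.34 ± 0.10), and SPRY4 was not tested. The ETS factor genes ETV1, ETV4 and ETV5 were not called (-0.51, -0.57 and -0.68, adjusted p = 0.152, 0.147 and 0.112 by edgeR). They had few counts, averaging 1.05, 0.526 and 0.385 CPM in Enz-R and 1.51, 0.775 and 0.629 CPM in parental cells. Of the corepressor genes of CIC, ATXN1L fell (-0.63 ± 0.07) and ATXN1, named beyond the 6 largest called changes, rose (0.34 ± 0.09). Of the Ly6 family genes related to LYPD3, LY6E (0.91 ± 0.06), PLAUR (0.88 ± 0.21), which lies in the upper flank, and CD59 (0.38 ± 0.06) rose and LYPD6 fell (-1.13 ± 0.25). Of the octamer factors POU2F1 and POU2F3 were not called.

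**Figure D5:**
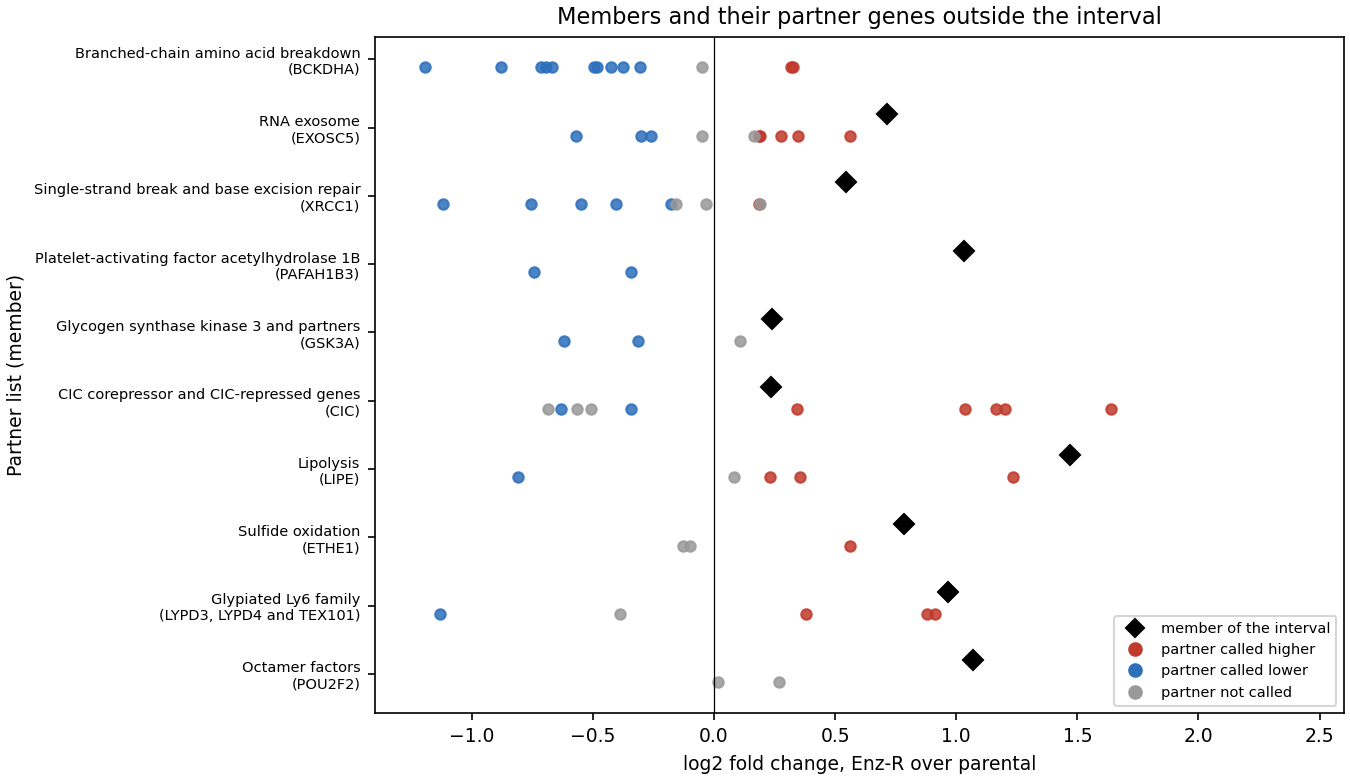
Log2 fold change of Enz-R over parental (x axis) of members (black diamonds) and of their partner genes outside the stretch (circles; red called higher, blue called lower, grey not called) by list (rows). Tested members lie right of 0. Of 62 partner genes 20 were called higher and 26 lower, against 32.4% and 32.3% of all tested genes.

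Other genes of the same stretch, left out of the set, followed it in part. RPS19, a ribosomal protein gene between DMRTC2 and CD79A, was at 1.43 ± 0.07, ZNF575 at 1.31 ± 0.21 and ZNF574 at 0.37 ± 0.08, all called higher, and ZNF526 at -0.17 ± 0.10 was not called. CEACAM5 had no counts and B3GNT8 had 13 counts over Enz-R and 22 over parental libraries. Of 47 non-coding genes in the stretch 5 were tested, and 3 were called higher. LINC01480 had 125 counts over the Enz-R group and 11 over the parental group (3.82 ± 0.37), LIPE-AS1 was at 0.94 ± 0.22 and PCAT19 at 0.64 ± 0.24.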

How the data were processed

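RNA-seq gene counts of 6 libraries were used, from 150 bp paired-end reads per the labels' protocols. The submitters' processing notes name HISAT2 and the GRCh38 build. No source used here gives versions, the counter, the annotation or how strand was treated. The deposited table holds raw counts made by the authors. Its 58676 Ensembl identifiers were given GENCODE 29 positions and 889 loci are unannotated.

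The whole table was fitted in R 4.3.3 by edgeR 4.0.16 (glmQLFit and glmQLFTest without covariates, after filterByExpr and TMM), with Benjamini-Hochberg adjustment over 19029 genes and a threshold of 0.05. Totals of 15673404 to 28247038 counts and a biological coefficient of variation of 7.20% set the precision. CPM used library totals scaled by TMM factors. The SE came from the F statistic and can be too small at few counts. Members and lists were chosen with earlier results of these data known. Values in every library are given for the 12 members with the highest mean CPM, the 4 largest and 4 smallest changes and the 2 at each end, and of each partner list at most 6 called genes are named by size of change, except where the text says otherwise. Alternatives were a block for replicate number, each library left out, DESeq2 size factors, total count scaling, 2 other count filters, DESeq2 1.42.0, limma-voom 3.58.1, GC content and length regressed out by splines, and mitochondrial genes left out. The fits were tested on simulated data. Single values of 2 tested members and of some partner genes are not reported here.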

Additional observations from a re-analysis of the deposited data

How the results depend on the processing

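Over the alternatives named above, no member was called lower. Leaving out 1 library at a time, 17 to 20 members were called higher, with a median log2 fold change of 0.70 to 0.77 for members, 0.44 to 0.53 for the lower flank and 0.18 to 0.25 for the upper flank. With total count scaling these medians were 0.67, 0.36 and 0.11. With GC content and length regressed out they were 0.56 for members and 0.39 for the lower flank. With at least 50 counts in 3 libraries the median of the 17 members left was 0.82. Within 1 Mb the flank medians were 0.57 below and 0.68 above, so the contrast between interval and flanks depends on the width of the flank.

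Of 324 values of 22 single members under the alternatives, 303 kept their direction and their side of the threshold, 11 lost the call and 10 changed sign. The lost calls were 8 of GSK3A and 1 each of CIC (total count scaling), POU2F2 and PRR19 (both without parental replicate 3). The sign changes were all in uncalled members. B9D2 stood at -0.0729 with GC content and length regressed out. CD79A stood at -0.25 there, at -0.0164 with total count scaling and at -0.18 to 0.33 leaving out 1 library. CEACAM1 stood at -0.0617 with total count scaling and ranged from -0.0814 to 0.265 leaving out 1 library. The cause of these shifts was not tested. Deviations of same-numbered libraries over the tested genes were nearly uncorrelated (0.05, -0.01 and 0.01). The share of mitochondrial counts, though, fell with replicate number in both groups. It was 15.48, 14.83 and 14.46% in Enz-R replicates 1 to 3 and 11.26, 10.5 and 8.78% in parental replicates 1 to 3. With 3 libraries per group, whether the numbers pair the libraries cannot be settled. With the replicate block 20 members were called higher and the median was 0.77. At these counts, small changes in members near 1 CPM could not be detected.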
